A study of Mus musculus with 12 samples.

Results

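The 10 genes described here are targets of 2 stress-sensing transcription factors, the aryl hydrocarbon receptor (AhR) and Nrf2. They were chosen by name: 4 AhR targets (Cyp1a1, Cyp1a2, Cyp1b1 and Tiparp) and 6 Nrf2 targets (Nqo1, Gclc, Gclm, Hmox1, Srxn1 and Txnrd1), out of 11899 genes tested on the array. All 10 were measured, and each is given by its brightest probeset. The series asked how low-dose antibiotics given to young mice affect gut bacteria and body fat. Livers came from male C57BL/6 mice, 6 given low-dose penicillin in their drinking water after weaning and 6 given no antibiotic. Each group was sampled after 7 weeks of intervention, with 1 array per mouse. The strain, sex and tissue were the same in both groups, and the sources used here do not give the dose, the age and hour at collection or the cages of the mice.

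AhR is a cytosolic receptor for planar aromatic compounds, among them pollutants, plant indoles and tryptophan products made by gut bacteria. Once bound it enters the nucleus, pairs with Arnt and switches on the Cyp1 family and Tiparp, an ADP-ribosyltransferase that in turn dampens AhR. Nrf2, encoded by Nfe2l2, is held down by Keap1 until oxidants or electrophiles modify Keap1, and it then pairs with small Maf proteins to drive genes of glutathione, thioredoxin, quinone and heme metabolism. Both factors in liver are best known from responses to foreign compounds. Nqo1 and Nfe2l2 itself are also described as targets of AhR, so the 2 groups of genes are not fully separate.

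The promoters of 4 of the genes are printed here, searched for the letters that each factor is known to prefer. The core bound by AhR with Arnt is GCGTG, and that bound by Nrf2 with a small Maf protein is TGACNNNGC. Another motif, TGANTCA, the core of the AP-1 factors Fos and Jun, was added after the arrays with high Fos had been seen. All 3 were sought on both strands in the 250 bases before the start of transcription, and capitals mark the matches. The sequences are those of RefSeq on GRCm38.p6, written 5′ to 3′ in the direction of the gene. Cyp1a1 is shown as the best known AhR target (chr9:57697363-57697612, plus strand), Tiparp as the AhR target with the largest group difference (chr3:65528197-65528446, plus strand), Gclm as a gene with the Nrf2 core (chr3:122245307-122245556, plus strand) and Srxn1 as the gene whose 2 highest values came from livers with high Fos (chr2:152105274-152105523, plus strand).
Cyp1a1: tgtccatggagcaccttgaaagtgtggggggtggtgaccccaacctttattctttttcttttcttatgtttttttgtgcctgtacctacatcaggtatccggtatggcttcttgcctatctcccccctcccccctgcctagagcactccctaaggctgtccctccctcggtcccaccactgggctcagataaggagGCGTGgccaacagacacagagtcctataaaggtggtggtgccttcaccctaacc
Tiparp: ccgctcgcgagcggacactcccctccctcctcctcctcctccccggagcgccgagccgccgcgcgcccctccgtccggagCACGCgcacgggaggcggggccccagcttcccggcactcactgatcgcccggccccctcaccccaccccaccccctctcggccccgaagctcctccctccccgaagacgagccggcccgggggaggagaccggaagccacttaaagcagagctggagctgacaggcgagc
Gclm: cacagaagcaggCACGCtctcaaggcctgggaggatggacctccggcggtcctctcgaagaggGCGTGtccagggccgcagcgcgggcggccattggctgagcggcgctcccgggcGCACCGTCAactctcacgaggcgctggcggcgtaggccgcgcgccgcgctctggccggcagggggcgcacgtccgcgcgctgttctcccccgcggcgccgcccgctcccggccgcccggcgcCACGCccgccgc
Srxn1: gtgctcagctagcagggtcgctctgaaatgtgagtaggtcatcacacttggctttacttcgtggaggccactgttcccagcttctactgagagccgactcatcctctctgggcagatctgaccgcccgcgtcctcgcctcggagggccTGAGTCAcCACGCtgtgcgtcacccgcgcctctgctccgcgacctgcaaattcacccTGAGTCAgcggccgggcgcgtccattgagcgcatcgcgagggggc

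Cyp1a1, Cyp1b1 and Tiparp each held 1 AhR core in this window, and Cyp1a2 held 0. Gclm held 3 AhR cores and 1 Nrf2 core. Srxn1 held 1 AhR core, 0 Nrf2 cores as spelled above and 2 AP-1 cores. The AP-1 match nearer the start of Srxn1 reads on as TGAGTCAgc, which departs from the Nrf2 spelling only by G for C. Looser spellings of the Nrf2 core were not sought, so the 0 does not mean that Srxn1 lacks an Nrf2 site. Txnrd1 has 3 start sites in the table, each with 1 AhR core and 1 of them with an Nrf2 core. Nqo1 held none of the 3 motifs in its window, and Gclc and Hmox1 had no entry in the table. Of 32851 promoter windows of the same length, 28.2% held the AhR core, 10.2% the Nrf2 core and 6.75% the AP-1 core. The matches describe letters in a short window, and binding was not measured.

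The arrays had medians of 25.9 to 27.0 in linear intensity, and any 2 correlated at 0.989 to 0.997 over probesets. RMA, by which the deposited values were made, gives all arrays the same distribution, so the medians do not compare the livers in overall signal. Hepatocyte genes were bright throughout (Alb, serum albumin, at 14.97 ± 0.03 in penicillin livers and 15.00 ± 0.03 in control livers, log2 intensity, SD, n = 6 each). Control 1, control 3 and control 5 stood apart by immediate early genes such as Fos: the mean deviation of 12 such genes was 2.08, 2.14 and 1.51 on the log2 scale there, against -0.89 to -0.62 in penicillin livers and -0.81 to -0.25 in the other controls. Control 6, penicillin 1, penicillin 5 and penicillin 6 stood apart by the clock output gene Dbp, at 11.96 to 12.05, against 6.44 to 10.68 in the other 8 livers. Of the 6 neutrophil markers listed, S100a8 and S100a9 were tested. Mpo and Elane were too dim, and Ly6g and Retnlg had no probeset with a single gene. The mean deviation of the tested 2 was -1.69 to -0.51 in penicillin livers and -0.32 to 2.28 in control livers. Both were lower in every penicillin liver than in every control, as were 0.151% of all genes. S100a8 in penicillin livers, at a mean of 4.74, was at the level of 4.73 under which probesets were left out. The 4 bile duct markers tested were all lower, at -0.53 to 0.08 with penicillin and 0.07 to 0.27 in controls. They were dim too, with group means from 4.80 (Krt7, penicillin) to 5.78 (Sox9 and Epcam, control). Of 8 Kupffer cell and macrophage markers 6 were lower and 2 higher, at -0.28 to 0.17 and -0.21 to 0.39. In whole tissue, fewer cells of a type and less RNA per cell cannot be told apart.

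The comparison of penicillin with control livers asked whether either pathway's targets differed after the treatment. None of the 10 genes passed limma's test with Benjamini-Hochberg adjustment over all 11899 genes (smallest adjusted p = 0.570 among them), nor did any other gene (0% called). At an unadjusted limma p under 0.05 there were 2 of the 10, Nqo1 as higher and Tiparp as lower, where 7.98% of all genes tested reached that mark (4.33% higher and 3.66% lower). In all, 6 were higher and 4 lower, beside 52.8% higher and 47.2% lower among all genes. The median difference, penicillin minus control, was -0.09 on the log2 scale over the 4 AhR targets and 0.004 over the 6 Nrf2 targets, against 0.006 over all genes tested. The median standard error was 0.122 for the AhR targets and 0.125 for the Nrf2 targets, beside 0.086 over all genes. For none of the 10 did all penicillin arrays lie on one side of all controls, as they did for 0.261% of genes above and 0.151% below.

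**Figure D1:**
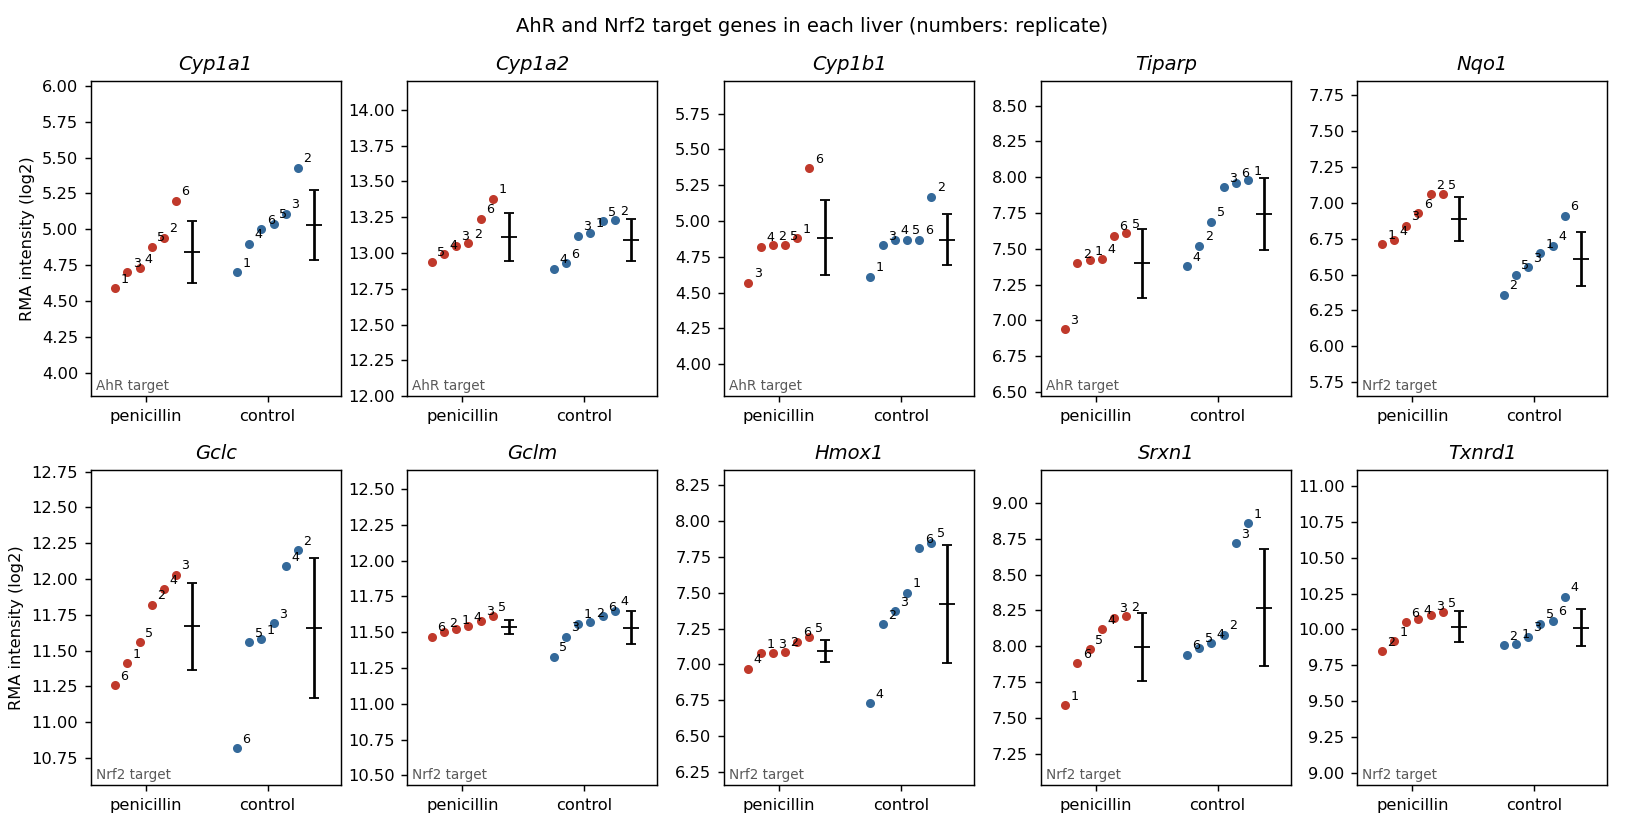
Log2 RMA intensity of each gene (y axis, the same span in every panel) in 6 penicillin livers (red) and 6 control livers (blue). Points stand in order of level and carry the replicate number, and bars give the mean ± SD. Nqo1 is shifted up in penicillin livers and Tiparp down, with overlap in both, and Srxn1 in control 1 and control 3 lies above all other livers.

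Cyp1a1, which oxidises polycyclic aromatic hydrocarbons and is the most inducible AhR target, was dim in every liver. It ranged from 4.59 to 5.20 in log2 intensity in penicillin livers (median 4.80) and from 4.70 to 5.43 in control livers (median 5.02). Its mean over all arrays, 4.93, lay just above the level of 4.73 under which probesets were left out, and without detection calls in the files its signal cannot be separated from background. The difference was -0.19 (95% interval -0.46 to 0.08; limma adjusted p = 0.747). Cyp1b1, an AhR-driven enzyme found mainly outside hepatocytes, was as close to that level, at 4.57 to 5.37 with penicillin and 4.61 to 5.17 in controls, and differed by 0.013 (95% interval -0.25 to 0.27). Its other probesets, at means of 3.96 and 2.87, were below the filter. They correlated with the brightest at -0.175 and -0.46 (Pearson r over 12 arrays). Across arrays, deviations of Cyp1a1 and Cyp1b1 from their group means ran together (Pearson r = 0.821 over 12 arrays). With both probesets so near the filter, this r may be one of background signal, and what it stems from was not tested. Penicillin 6 and control 2 were the highest livers of their groups for both genes.

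Cyp1a2, the hepatocyte enzyme that metabolises caffeine and aromatic amines, was bright and steady. Penicillin livers lay at 12.94 to 13.38 (median 13.06) and control livers at 12.89 to 13.23 (median 13.13), so the groups covered nearly the same span. The difference was 0.02 (SE 0.09, limma adjusted p = 0.968) with a 95% interval of 0.892 to 1.16 in fold penicillin over control. Cyp1a2 is made mostly by hepatocytes around the central vein. Of 7 pericentral markers 2 were higher and 5 lower, with a median of -0.03, and 0 had an unadjusted p under 0.05. The glutamine-making enzyme Glul differed by -0.03 and Cyp2e1 by -0.01.

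Tiparp had the largest difference of the AhR targets. It ranged from 6.94 to 7.61 in penicillin livers (median 7.43) and from 7.38 to 7.98 in control livers (median 7.81). Control 1, control 3, control 5 and control 6 lay above every penicillin liver, while control 2 and control 4 fell within the penicillin range. The mean was 7.40 ± 0.24 with penicillin and 7.74 ± 0.26 in controls (SD, n = 6 each). This is 0.787-fold of control (log2 difference -0.35, SE 0.13, 95% interval -0.63 to -0.06), with an unadjusted limma p of 0.0214 that did not pass after adjustment (0.571) and an exact two-sided permutation p of 0.0411. Its 3 probesets agreed in direction, at -0.35, -0.39 and -0.30, and the name of the brightest ends in a mark for probes that match more than 1 transcript. The difference was -0.24 when control 1 and control 3 were left out, and -0.22 when control 5 was left out as well (limma adjusted p = 0.996). The immediate early genes described above were high in control 1, control 3 and control 5 but not in control 6, and their part in the difference was not tested.

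**Figure D2:**
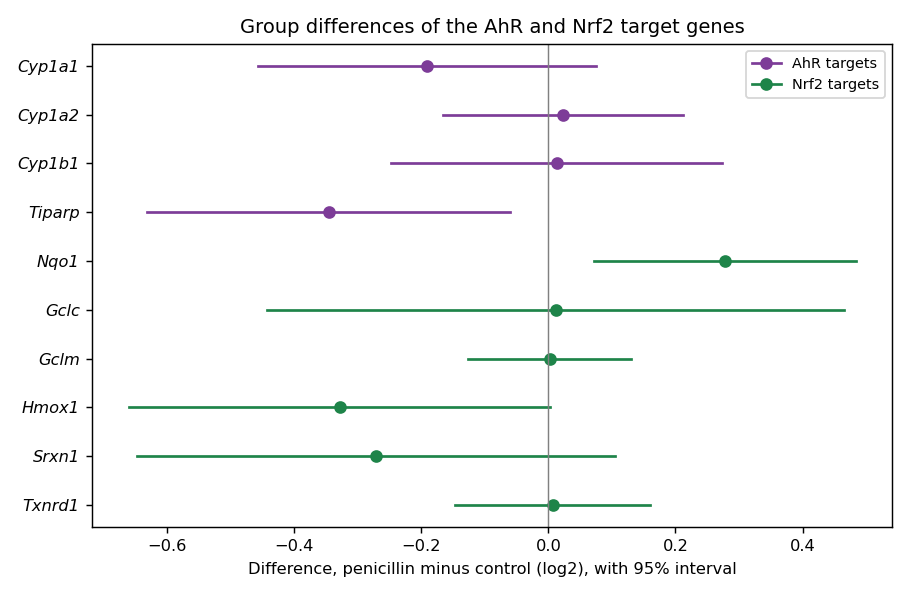
Difference, penicillin minus control, in log2 units (x axis) with its 95% interval from limma for each of the 10 genes (y axis; AhR targets in purple, Nrf2 targets in green). The intervals of Tiparp, below 0, and Nqo1, above 0, leave out 0 before adjustment over all genes, and those of Gclm and Txnrd1 are the narrowest.

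Nqo1, a quinone reductase and the classic Nrf2 target, was the one gene of the set with a higher level at an unadjusted p under 0.05. Penicillin livers lay at 6.71 to 7.06 (median 6.88) and control livers at 6.36 to 6.91 (median 6.60). Every penicillin liver lay above 5 of the 6 controls, and control 6 fell within the penicillin range. The means were 6.89 ± 0.15 with penicillin and 6.61 ± 0.19 in controls (SD, n = 6 each), a 1.21-fold difference (log2 difference 0.28, SE 0.10, 95% interval 0.07 to 0.48). The unadjusted limma p was 0.0122, the adjusted p 0.570 and the exact two-sided permutation p 0.0216. The difference was 0.23 when control 1, control 3 and control 5 were left out (limma adjusted p = 0.996). Leaving out the 4 livers with high Dbp gave 0.33. Nqo1 was represented by its only named probeset.

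Gclc and Gclm encode the catalytic and the modifier subunit of glutamate-cysteine ligase, the first step of glutathione synthesis. Gclc had the widest spread of the 10 genes, at 11.26 to 12.03 in penicillin livers (median 11.69) and 10.82 to 12.20 in control livers (median 11.63). The difference was 0.011 (SE 0.21), with a 95% interval of 0.736 to 1.38 in fold. Its levels ran against Dbp: Gclc stood at 11.41, 11.56 and 11.26 in penicillin 1, penicillin 5 and penicillin 6 and at 10.82 in control 6, the 4 livers with the highest Dbp, and at 11.56 to 12.20 in the others. Its second probeset followed the first (Pearson r = 0.947 over 12 arrays) and differed by 0.03. Gclm varied little by its brightest probeset, at 11.47 to 11.61 with penicillin and 11.33 to 11.65 in controls. It differed by 0.0020 (SE 0.06), and the interval of 0.917 to 1.09 in fold was the narrowest of the set. Its second probeset differed by 0.12 (SE 0.13) and followed the first only loosely (r = 0.322), so the 2 describe the gene differently.

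**Figure D3:**
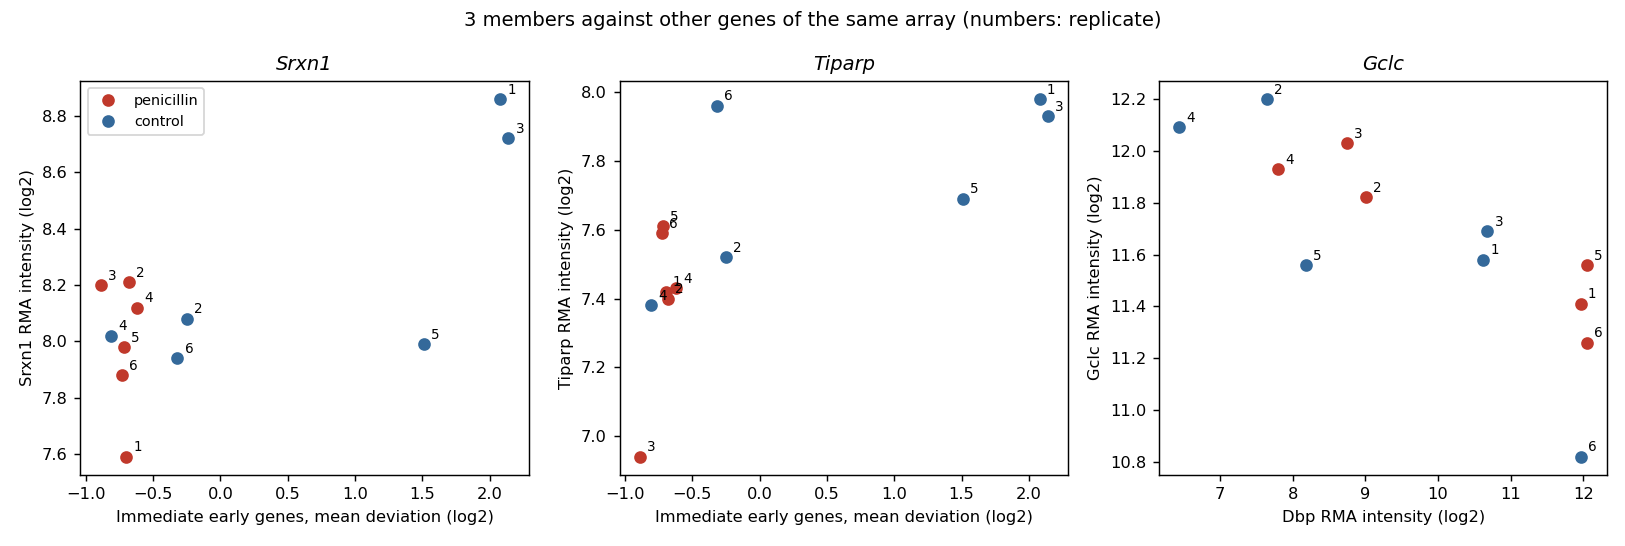
Log2 intensity of Srxn1 and Tiparp (y axes) against the mean deviation of 12 immediate early genes in the same liver, and of Gclc against the level of Dbp (x axes, log2). Each point is a liver with its replicate number, in red for penicillin and blue for control. Control 1 and control 3 lie at the upper right for Srxn1, and the 3 lowest Gclc values come from livers with Dbp at 11.96 to 12.05.

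Txnrd1, the cytosolic thioredoxin reductase, had overlapping groups. Penicillin livers lay at 9.85 to 10.12 (median 10.06) and control livers at 9.89 to 10.23 (median 9.99). The difference was 0.0067 (SE 0.07, limma adjusted p = 0.989), with an interval of 0.904 to 1.12 in fold. A dimmer probeset of Txnrd1 that also passed the filter differed by -0.01.

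Srxn1, sulfiredoxin, which repairs over-oxidised peroxiredoxins, had 2 high values. Penicillin livers lay at 7.59 to 8.21 (median 8.05). Control livers lay at 7.94 to 8.86 (median 8.05), and control 1 at 8.86 and control 3 at 8.72 were above all other livers. The mean difference was -0.27 (SE 0.17, limma adjusted p = 0.743) while the medians were equal to the second decimal, and without control 1 and control 3 it was -0.01. These 2 livers were also the highest in the small Maf genes Maff, at 8.23 and 8.30, and Mafk, at 8.25 and 8.23. Control 5, whose Fos was the highest of all at 11.85, had Srxn1 at 7.99. The 4 probesets of Srxn1 differed by -0.27, -0.096, 0.008 and -0.157 from the brightest to the dimmest. The others followed the brightest at Pearson r = 0.908, 0.296 and 0.86 over 12 arrays, in that order. As for Tiparp, the name of the brightest has the mark for probes that match more than 1 transcript.

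Hmox1, heme oxygenase, which opens heme into biliverdin, iron and carbon monoxide and is also made by macrophages that clear red cells, had its 12 values in overlapping ranges. Penicillin livers lay within 6.97 to 7.19 (median 7.08), and control livers spanned 6.73 to 7.85 (median 7.43). Of the 6 controls 5 were above every penicillin liver, and control 4 was below them all. The means were 7.09 ± 0.07 with penicillin and 7.42 ± 0.41 in controls (SD, n = 6 each), a log2 difference of -0.33 (SE 0.15, 95% interval -0.66 to 0.0032). The unadjusted limma p was 0.0520, the adjusted p 0.632 and the exact two-sided permutation p 0.0952. The difference was -0.47 when control 4 was left out (limma adjusted p = 0.218) and -0.18 when control 1, control 3 and control 5 were. The 8 Kupffer cell and macrophage markers had overlapping groups, with a mean deviation of -0.28 to 0.17 in penicillin livers. From control 1 to control 6 it was -0.09, 0.21, -0.06, -0.21, -0.02 and 0.39. Hmox1 in the same order stood at 7.5, 7.28, 7.37, 6.73, 7.85 and 7.81. Penicillin 3, with the lowest marker deviation at -0.28, had Hmox1 at 7.08. The neutrophil marker S100a9, from control 1 to control 6, was at 7.53, 6.59, 7.24, 5.82, 6.73 and 8.44. Penicillin livers had S100a9 at 4.91 to 5.78. The part of macrophages or neutrophils in the Hmox1 difference was not tested.

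The regulators of both pathways did not pass either. Ahr itself differed by -0.05 (9.45 ± 0.25 in penicillin livers and 9.50 ± 0.48 in control livers, SD, n = 6 each) and Arnt, its partner, by 0.11. The AhR repressor Ahrr and the AhR target Aldh3a1 were below the filter, at means of 3.15 and 3.39. Nfe2l2 differed by -0.13 (SE 0.12) and Keap1 by 0.05 (SE 0.07). Of 9 genes of the Nrf2 machinery 4 were higher and 5 lower, with a median of -0.08, and 0 had an unadjusted p under 0.05. Those with the smallest p were Mafk, at -0.38 (limma adjusted p = 0.654), and Mafg, also a small Maf partner, at 0.19 (adjusted p = 0.713). Without control 1 and control 3, Mafk differed by -0.13, and 7 of the 9 were higher with a median of 0.024. Of all 11899 genes 5933 were then higher, with a median of 0. With control 5 left out as well, 6 of the 9 were higher with a median of 0.026, beside 5581 of all 11899 genes.

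Other genes known to respond to these factors were counted in 4 lists. The lists were chosen with earlier results of these data known, and 0 of their genes passed over all genes tested. Of 13 genes of detoxication, export, heme and iron 11 were higher and 2 lower, beside 52.8% higher among all genes, with a median of 0.08. An unadjusted limma p under 0.05 as higher was reached by 4 of them, where 4.33% of all genes did. Abcc3, an exporter of bile acids and conjugates, was at 10.64 to 10.83 in penicillin livers and 10.34 to 10.58 in control livers (difference 0.28, SE 0.06, limma adjusted p = 0.276). It was the 1 gene of the 13 with every penicillin liver above every control, as were 0.261% of all genes. The other 3 were Ephx1, microsomal epoxide hydrolase, at 0.36 (SE 0.14), the aldehyde oxidase Aox1 at 0.35 (SE 0.12) and the biliverdin reductase Blvrb at 0.28 (SE 0.11). Abcc3, Aox1 and Ephx1 also respond to other drug receptors, CAR among them. Without control 1, control 3 and control 5, 9 of the 13 were higher, as were 5581 of all 11899 genes, and Abcc3 alone had an unadjusted p under 0.05, at 0.23 (1.85% of all genes as higher). Ephx1 then differed by 0.30, Aox1 by 0.35 and Blvrb by 0.115.

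**Figure D4:**
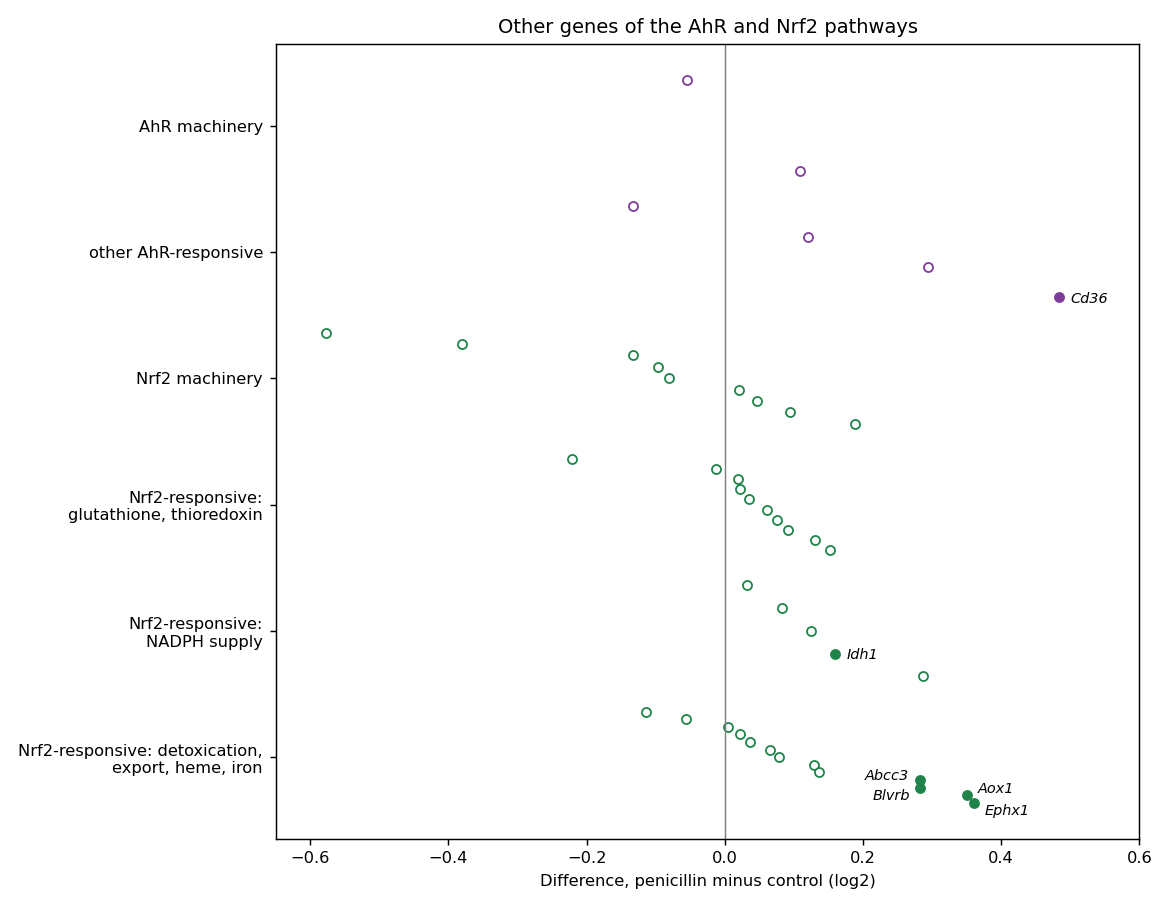
Difference, penicillin minus control, in log2 units (x axis) of each tested gene in 6 lists of pathway genes (y axis; AhR lists in purple, Nrf2 lists in green). Filled points had an unadjusted limma p under 0.05 and carry the gene name, and open points did not. Abcc3, Blvrb, Aox1 and Ephx1 lie between 0.28 and 0.36.

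All 5 tested genes of NADPH supply, which feeds glutathione and thioredoxin reduction, had differences above 0, with a median of 0.125, where 52.8% of all genes were higher. Isocitrate dehydrogenase Idh1 differed by 0.16 (SE 0.06, limma adjusted p = 0.584) and was the 1 gene of the 5 with an unadjusted p under 0.05 as higher, beside 4.33% of all genes. Transaldolase Taldo1, with the next smallest p, was at 0.08. When control 1, control 3 and control 5 were left out, 4 of the 5 were higher, with a median of 0.073, 0 had an unadjusted p under 0.05, and Idh1 differed by 0.10. Of 10 genes of glutathione and thioredoxin metabolism 8 were higher and 2 lower, with a median of 0.05 and 0 at an unadjusted p under 0.05, and 6 were higher, with a median of 0.017, when those controls were left out. Glutathione synthetase Gss was at -0.22 (SE 0.11) and thioredoxin Txn1 at 0.06 (SE 0.05). Of 4 other AhR-responsive genes 3 were higher, beside 52.8% of all genes. The fatty acid transporter Cd36 was the 1 gene of the 4 with an unadjusted p under 0.05 as higher, beside 4.33% of all genes. It was at 9.25 ± 0.32 in penicillin livers and 8.77 ± 0.37 in control livers (SD, n = 6 each). Cd36 differed by 0.48 (limma adjusted p = 0.570) and by 0.225 without control 1, control 3 and control 5. Fgf21, a fasting hormone of liver, was at 0.29.

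The 10 genes did not share 1 pattern across livers. Of their 45 pairs, Pearson r of deviations from the group means over 12 arrays ran from -0.723 for Tiparp with Gclc to 0.821 for Cyp1a1 with Cyp1b1. Cyp1a1 and Cyp1b1 were both near the filter, so their r may be one of background signal. Within the Nrf2 targets, Gclc with Hmox1 was at -0.681. Cyp1a2 ran against Nqo1 (-0.647), Txnrd1 (-0.628) and Gclm (-0.613). The pairs named here were picked for the size of their r among the 45, and none of these r was tested. By the same measure, the tested genes most like each member were Mxra8 and Lcp2 for Cyp1a1, Hpgd and Usp53 for Cyp1a2, Ccl5 and Ranbp2 for Cyp1b1, Bhlhe40 and Esam for Tiparp, and Znhit3 and Qtrt2 for Nqo1. They were Slc6a13 and Ptcd3 for Gclc, Maoa and Paqr7 for Gclm, Cxcl1 and Nsdhl for Hmox1, Sox9 and Actg1 for Srxn1, and Upk1a and Pcsk6 for Txnrd1. The r of these pairs ran from 0.870 to 0.965. Each was the highest of many genes over the same 12 arrays, so they are a description and carry no test. Sox9, a bile duct and progenitor factor and the closest to Srxn1 (r = 0.965), stood at 6.41 and 6.17 in control 1 and control 3, against 4.77 to 5.51 in penicillin livers and 5.29 to 5.65 in the other controls.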

How the data were processed

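Liver RNA was labelled from the 3-prime end and measured on Affymetrix arrays, per the labels' protocols. The submitters' processing notes name RMA, without software, version or settings, as the step by which the authors made the deposited probeset intensities. Because RMA gives all arrays the same distribution, it takes away any shift common to most genes. The intensities came unlogged and were turned into log2 here.

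Of 45101 probesets 64 were controls. The platform annotation gave 1 gene for 34945 of the rest, several for 932 and none for 9160, and no gene was named from several. Symbols were updated through a RefSeq table of GRCm38.p6 (18032 identifiers found, 162 not). Probesets with a mean under the median of all (4.73 log2) were left out. Each gene was represented by its brightest remaining probeset, giving 11899 genes. Levels of different probesets were not set against each other.

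Penicillin minus control was fitted with limma 3.58.1 in R 4.3.3 (empirical Bayes, two-sided, Benjamini-Hochberg over all genes tested, threshold 0.05). The code of the fit was tried on simulated data with independent noise for each gene. That noise lacks the differences between livers that many genes share here, so the trial does not bear on the differences reported. Exact permutation tests used all 924 assignments of 6 arrays to a group, with a smallest possible p of 0.00216. With 6 arrays a group, the number of arrays limits the precision, and no label says whether mice shared a cage. The genes and lists were chosen with earlier results of these data known. The genes named are all 10 targets, in each pathway list those with an unadjusted p under 0.05 (or the 2 with the smallest p where fewer than 2 had that), and for each target the 2 genes most like it; any other was chosen after its values were seen. Same-numbered arrays of the groups correlated, from number 1 to number 6, at 0.252, 0.323, 0.041, 0.315, -0.255 and 0.385 in their deviations from the group means. No label says that the numbers are pairs, and the main fit did not use them, though these values do not settle whether they are. Alternatives were other filters, normalizations, weights, variance priors and probeset summaries, the replicate block and the omission of arrays.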

Additional observations from a re-analysis of the deposited data

Results flagged for a closer look

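Of 24 sets of 6 arrays (the 10 genes and the means of the AhR and Nrf2 targets, in each group), 1 held an array far from the rest. Tiparp in penicillin 3 stood at 6.94, against 7.40 to 7.61 in the other penicillin livers, a gap of 0.691 of the group's range and above Dixon's critical value for 6 arrays. Chance flags about 1 in 20 such sets. Without this array Tiparp differed by -0.25 (limma adjusted p = 0.576).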

How the results depend on the processing

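Each result was recomputed under 23 alternatives (22 for Cyp1a1, Cyp1b1 and Nqo1, which the stricter filter left out), of which the omission of control 1 and control 3, of these with control 5, and of control 6 with penicillin 1, penicillin 5 and penicillin 6 was chosen after the data were seen. None of the 23 called any gene (0, with smallest adjusted p from 0.0732 to 0.996), while 488 to 1407 genes had an unadjusted p under 0.05, with 630 lacking control 1 and control 3 and 488 lacking control 5 as well. The median of the AhR targets ran from -0.19 to -0.03, and from -0.174 to -0.03 with 1 array left out. That of the Nrf2 targets ran from -0.069 to 0.038 over the single omissions, with -0.069 without control 6. Tiparp, Hmox1, Srxn1 and Cyp1a1 stayed below 0 and Nqo1 above 0 under each alternative, at -0.445 to -0.22, -0.467 to -0.18, -0.336 to -0.0102, -0.269 to -0.11 and 0.227 to 0.338. Some alternatives could not move a gene's difference, so the kept sign says nothing there. These were the filters, the replicate block and the variance prior, and the probeset mean for Cyp1a1, Nqo1 and Hmox1, which have 1 probeset.

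The 5 genes with differences near 0 changed sign, without passing. With array weights Cyp1a2 was at -0.00698 and Gclc at -0.0509. Without control 6, penicillin 1, penicillin 5 and penicillin 6, Cyp1a2 was at -0.0817 and Cyp1b1 at -0.132. Without control 1 and control 3, Cyp1b1 was at -0.0615, Gclc at -0.000349, Gclm at -0.00581 and Txnrd1 at -0.0366, and without control 5 as well they were at -0.0867, -0.0358, -0.0747 and -0.0412. As a mean of its probesets Txnrd1 was at -0.00207. With 1 array left out the ranges were -0.0293 to 0.0578 for Cyp1a2, -0.0853 to 0.0761 for Cyp1b1, -0.156 to 0.12 for Gclc, -0.0378 to 0.0262 for Gclm and -0.0181 to 0.0497 for Txnrd1. The cause was not tested. With the replicate number as a block, 0 genes were called (smallest limma adjusted p = 0.0732, against 0.265 without it). An unadjusted p under 0.05 was then reached by 1214 genes, against 950 without the block. Each array was also compared with the 6 arrays of the other group, and 5 of the 12 were closest there to the array of their own number.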
